A study of Mus musculus with 6 samples.

Results

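Transcripts of 9 genes that define dendritic cells were followed in sorted mouse cardiac macrophages with and without Tet2. The 9 genes were taken by name from the 35865 genes of the series: Flt3, Zbtb46, Xcr1, Clec9a, Itgae, Irf4, Ccr7, Fscn1 and Siglech. Estimated read counts and TPM (a level corrected for transcript length that sums to 1000000 in each library) were summed over the transcripts of each gene. All 9 passed the filter on low counts and are among the 16386 genes tested. The series holds 6 libraries. In 3 of them (Tet2 KO) the macrophages came from Tet2 knockout donor haematopoietic progenitors, and in the other 3 (Tet2 WT) from progenitors wild type for Tet2. Both groups are on the C57BL/6J strain, and in both the cells were sorted from digested hearts. The series title places the work in mice that were not conditioned. The sort gate, the age of the mice and the design of the Tet2 allele are not given in the sources used here. Nothing in the labels says that the 3 libraries of a genotype come from separate animals, and if they do not, p-values reflect only technical spread among libraries.

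Dendritic cells take up antigen, move to lymph nodes and present it to T cells. Conventional dendritic cells depend on the growth factor FLT3 ligand and its receptor FLT3, and are set apart from macrophages by the transcription factor ZBTB46. Type 1 cells (cDC1) need BATF3 and IRF8 and cross-present antigen, type 2 cells (cDC2) use IRF4, mature cells of either type switch on CCR7 to migrate, and plasmacytoid cells make type I interferon. The heart holds all of these in small numbers beside many macrophages, and several of the genes are also used by other cells, such as Itgae and Ccr7 by T cells, Irf4 by B cells and macrophages, and Zbtb46 by endothelial cells.

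Libraries held 37349505 to 55771087 estimated counts. Markers of the labelled cell type were abundant: Adgre1, which encodes F4/80, stood at 314 to 644 TPM and Csf1r, the receptor that keeps macrophages alive, at 563 to 1234 TPM. Tet2 itself stood at 33.7, 27.7 and 29.1 TPM in Tet2 KO against 23.3, 26.1 and 24.6 TPM in Tet2 WT, and its level did not fall with the label (log2 fold change 0.32 ± 0.14 (SE), edgeR adjusted p = 0.159). Which part of the gene was deleted is not stated, so reads from the rest of it do not check the labels. Fibroblast markers differed most among the cell types looked at. All 16 were called lower in Tet2 KO, and their summed level was 1296 to 2658 TPM there against 10396 to 19462 TPM in Tet2 WT. Of 16 pan-macrophage markers 8 were called higher and 0 lower, with sums of 9683 to 13489 and 7368 to 8921 TPM. Of the tested markers of other cells, 1 of 12 monocyte genes was higher and 1 lower, 1 of 12 endothelial genes was lower, 1 of 3 neutrophil genes was higher, 1 of 5 plasma cell genes was higher and 1 lower, and neither the 10 cardiomyocyte nor the 2 NK cell genes were called. The monocyte markers summed to 518 to 865 TPM in Tet2 KO and 376 to 511 TPM in Tet2 WT, with a median log2 fold change of 0.20. Ncr1, which defines NK cells, was listed at 0 in every library. In sorted bulk samples, fewer cells of a type and less RNA per cell cannot be told apart.

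Of the 9 dendritic cell genes, 1 was called between the genotypes, Fscn1, which was lower in Tet2 KO, and 8 were not. Over all tested genes 16.2% were called (10.1% lower and 6.11% higher), so that 1 of 9 is near the background. The median log2 fold change of the 9 genes was 0.19, and 0.00 over all tested genes. Their summed level was 33.6, 32.1 and 26.5 TPM in Tet2 KO against 28.6, 37.2 and 34.7 TPM in Tet2 WT, so the groups overlapped. Every one of the 9 stood far below the macrophage markers named above.

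**Figure D1:**
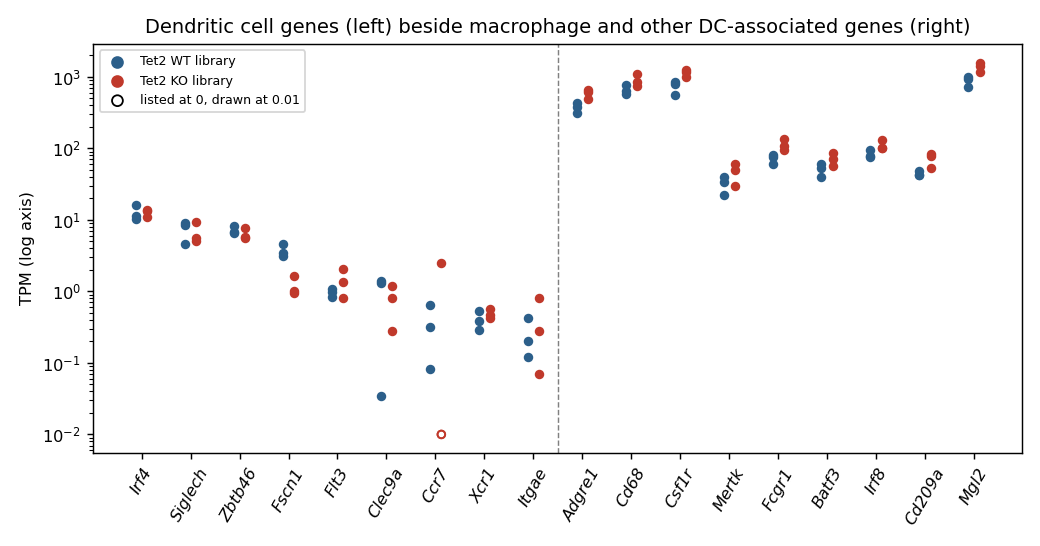
TPM on a log axis of the 9 dendritic cell genes, ordered by mean level, and of 9 other genes to the right of the dashed line, with 1 point per library (blue Tet2 WT, red Tet2 KO). Irf4 is the most abundant of the 9 at 10.1 to 15.9 TPM, while Csf1r is at 563 to 1234 TPM; the open circle stands for the 2 Tet2 KO libraries in which Ccr7 was listed at 0.

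In level the 9 genes formed 3 steps. Irf4 was highest, at 12.6 TPM over the 6 libraries, and its lowest library (10.1 TPM) was above every library of the other 8. Siglech and Zbtb46 followed at means of 6.99 and 6.74 TPM with overlapping libraries, and then Fscn1 at 2.46 TPM and Flt3 at 1.19 TPM, whose libraries also overlapped. Clec9a (0.832 TPM), Ccr7 (0.587 TPM), Xcr1 (0.444 TPM) and Itgae (0.318 TPM) were lowest, and each overlapped its neighbours in this order. Among all tested genes Irf4 stood at the percentile 55.7 of mean TPM, Zbtb46 at 44.0 and Itgae at 9.33.

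For 4 of the genes the counts fell on transcripts that part from each other inside the gene, and the sequences at that point are shown because they decide what a count for the gene stands for. The sequences are those of the GENCODE M21 transcripts on GRCm38, 5′ to 3′. Capitals mark the 3 bases that only the longer Irf4 form holds. In the other pairs they mark the 30 bases that follow the point where the forms part. In Irf4 (plus strand of chromosome 13) the transcripts differ by 3 bases at the start of exon 5, chr13:30753445-30753447, in the coding sequence, and share every other base.
Irf4 longer form, ENSMUST00000021784.9: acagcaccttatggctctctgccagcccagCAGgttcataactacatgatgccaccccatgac
Irf4 shorter form, ENSMUST00000110307.2: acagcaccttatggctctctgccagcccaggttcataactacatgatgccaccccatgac
In Itgae (plus strand of chromosome 11) the coding transcript of 31 exons goes on from exon 26 to exon 27, chr11:73138455-73138484 in capitals, while a transcript annotated as a retained intron reads on past the end of exon 26, chr11:73134099-73134128 in capitals.
Itgae coding form, ENSMUST00000006101.3: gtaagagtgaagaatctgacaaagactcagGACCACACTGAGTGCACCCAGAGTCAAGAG
Itgae retained intron, ENSMUST00000102537.9: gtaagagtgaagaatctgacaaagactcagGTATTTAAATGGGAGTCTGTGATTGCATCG
In Flt3 (minus strand of chromosome 5) the coding transcript of 24 exons and a transcript with no annotated coding sequence part after exon 9, and the second ends in an exon of 2519 bases within the next intron of the first.
Flt3 coding form, ENSMUST00000049324.12: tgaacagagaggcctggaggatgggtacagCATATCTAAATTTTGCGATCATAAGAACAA
Flt3 non-coding form, ENSMUST00000110549.2: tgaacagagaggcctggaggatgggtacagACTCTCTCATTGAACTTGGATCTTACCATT
In Zbtb46 (minus strand of chromosome 2) a form of 5 exons leaves exon 3 where a form of 3 exons reads through into the intron, and in both the next bases are annotated as coding.
Zbtb46 longer form, ENSMUST00000029106.12: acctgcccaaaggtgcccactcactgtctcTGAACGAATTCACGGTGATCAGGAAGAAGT
Zbtb46 shorter form, ENSMUST00000087409.9: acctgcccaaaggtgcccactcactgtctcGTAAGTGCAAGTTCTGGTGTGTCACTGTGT

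Flt3, the receptor tyrosine kinase whose ligand drives dendritic cell development (ENSMUSG00000042817.15, chr5:147330741-147400489), stood at 0.812, 1.37 and 2.08 TPM in Tet2 KO and at 0.978, 0.830 and 1.09 TPM in Tet2 WT. Replicates 2 and 3 of Tet2 KO were above every Tet2 WT library, and replicate 1 was the lowest of the 6. The log2 fold change was 0.69 ± 0.39 (SE) and was not called (edgeR adjusted p = 0.281). Split by transcript, the coding form was at 0.793, 1.03 and 1.88 TPM in Tet2 KO against 0.757, 0.526 and 0.545 TPM in Tet2 WT, without overlap. Among transcripts with a mean of at least 10 counts, 6.71% were likewise higher in every Tet2 KO library. The non-coding form took 2.56%, 26.3% and 10.4% of the counts of the pair in Tet2 KO and 24.1%, 38.5% and 52.2% in Tet2 WT, so that up to 52.2% of the Flt3 counts of a library lay on a form that ends before the exons of the kinase domain. The 2 forms share their first 9 exons, over which kallisto divides reads by a model.

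Zbtb46, the transcription factor that marks conventional dendritic cells and their committed precursors (ENSMUSG00000027583.13, chr2:181387762-181459426), was at 7.77, 5.82 and 5.49 TPM in Tet2 KO against 6.71, 6.46 and 8.20 TPM in Tet2 WT. The groups overlapped, and the log2 fold change of -0.09 ± 0.18 (SE) was not called (edgeR adjusted p = 0.799). With libraries scaled to the summed pan-macrophage markers in place of all genes it was -0.75 ± 0.25 and called lower (edgeR adjusted p = 0.0376). That scaling moved the median of all tested genes from 0.00 to -0.65 and called 38.0% of them, 37.9% as lower. Per 10000 TPM of macrophage markers Zbtb46 made up 5.76, 6.01 and 4.45 TPM in Tet2 KO against 9.10, 7.24 and 9.28 TPM in Tet2 WT. The shorter form took 77.0%, 36.9% and 54.0% of the counts of the pair in Tet2 KO and 42.7%, 47.8% and 47.1% in Tet2 WT, with the Tet2 KO libraries on both sides of the Tet2 WT ones. Markers of endothelial cells, which also use Zbtb46, summed to 157 to 222 TPM in Tet2 KO and 157 to 316 TPM in Tet2 WT, and Cdh5, their defining cadherin, was at 0.750 to 3.47 TPM. Their part in the Zbtb46 level was not tested.

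The 3 markers of cDC1 were at 1.38 TPM or less in every library. Xcr1, the receptor for the chemokine XCL1 (ENSMUSG00000060509.4, chr9:123852315-123862029), received 54.4, 103 and 74.5 counts in Tet2 KO and 85.5, 66.4 and 45.4 in Tet2 WT. At 0.286 to 0.572 TPM it was the steadiest of the 3, and its log2 fold change of 0.45 ± 0.42 (SE) was not called (edgeR adjusted p = 0.550). Clec9a, which encodes DNGR-1, a receptor for dead cells (ENSMUSG00000046080.17, chr6:129408862-129424763), was at 0.279, 1.17 and 0.808 TPM in Tet2 KO against 1.38, 1.32 and 0.0346 TPM in Tet2 WT. Replicate 3 of Tet2 WT, with 4 counts, was far below the others, and the log2 fold change of -0.24 ± 0.94 (edgeR adjusted p = 0.905) was 0.61 without Tet2 WT replicate 2. Exons of Clec9a overlap those of the neighbouring gene Clec1b on the same strand, so its counts are uncertain.

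Itgae, the integrin chain CD103 that pairs with the beta 7 chain (ENSMUSG00000005947.11, chr11:73090583-73147446), received 7, 43 and 121 counts in Tet2 KO and 17, 30 and 57 in Tet2 WT. Replicate 3 of Tet2 KO was highest and replicate 1 of Tet2 KO lowest, and the log2 fold change of 0.82 ± 0.79 (SE) was not called (edgeR adjusted p = 0.567). It was -0.28 without Tet2 KO replicate 3. The retained-intron transcript shown above took 100%, 100% and 94.1% of these counts in Tet2 KO and 14.4%, 33.5% and 100% in Tet2 WT, so in 4 of 6 libraries almost no count was given to the transcript that encodes CD103. Haspin, a kinase gene of mitosis on the opposite strand, lies within an intron of Itgae at chr11:73135485-73138294 and shares no exon with it. The beta 7 gene Itgb7, in contrast, was higher in Tet2 KO, at 12.3, 9.09 and 10.9 TPM against 5.46, 7.67 and 5.43 TPM (log2 fold change 0.96 ± 0.19, edgeR adjusted p = 0.00768).

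Irf4, the interferon regulatory factor of cDC2 and of alternatively activated macrophages (ENSMUSG00000021356.10, chr13:30749226-30766976), had the highest level of the 9. It received 1487 to 2682 counts per library and stood at 13.9, 13.3 and 11.0 TPM in Tet2 KO against 10.1, 15.9 and 11.3 TPM in Tet2 WT. The lowest and the highest library were both Tet2 WT, and the log2 fold change was 0.19 ± 0.21 (SE; edgeR adjusted p = 0.624). The sign turned with scaling to the macrophage markers (-0.43 ± 0.23, edgeR adjusted p = 0.143). Both forms that differ by 3 bases received estimated counts in every library: the shorter one took 34.8%, 41.5% and 44.5% of the counts of the pair in Tet2 KO and 43.3%, 30.7% and 44.4% in Tet2 WT. Only reads over those 3 bases tell the forms apart, and kallisto divides all other reads of the pair by a model. The share therefore rests on far fewer reads than the counts of the gene. The 13 B cell markers summed to 409 to 810 TPM in Tet2 KO and 373 to 443 TPM in Tet2 WT. Ighm, the immunoglobulin heavy chain gene, was the most abundant at 326 to 759 TPM, and Cd79b and Ebf1 came next in level. Cd79a and Ms4a1 were under 1 TPM in each library, and 9 of the 13 markers had a mean under 1 TPM. Of the 8 that could be tested, 2 were called higher and 1 lower. The part of B cells in the Irf4 level was not tested.

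**Figure D2:**
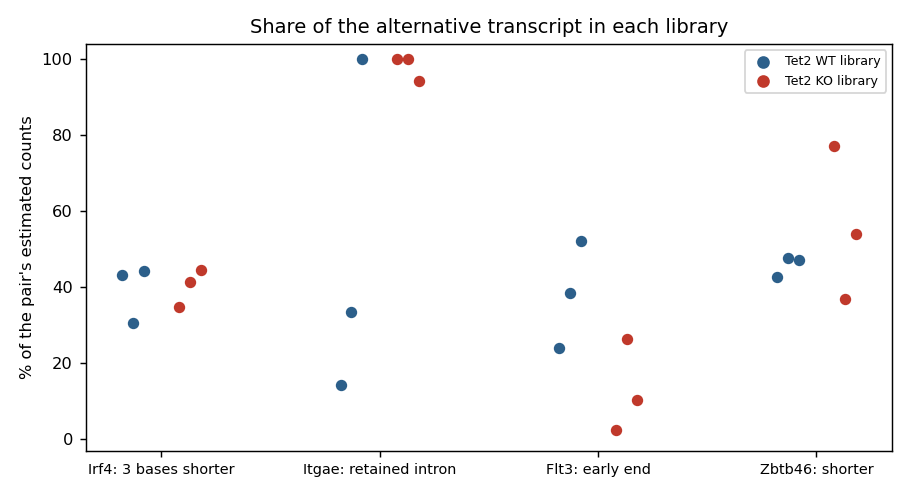
Share of the alternative transcript among the estimated counts of each transcript pair (y axis, percent) for the 4 genes whose sequences are shown, with 1 point per library (blue Tet2 WT, red Tet2 KO). The Irf4 share keeps to 30.7% to 44.5% in all 6 libraries, whereas that of Itgae runs from 14.4% to 100%. Reads from bases that both forms of a pair share, nearly all bases in Irf4, are divided by the model of kallisto.

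Ccr7, the chemokine receptor that guides mature dendritic cells and naive lymphocytes to lymph nodes (ENSMUSG00000037944.8, chr11:99144196-99155077), rested on 1 library of Tet2 KO. It received 0, 187 and 0 counts in Tet2 KO and 44, 6 and 21 in Tet2 WT, or 0, 2.47 and 0 TPM against 0.651, 0.0821 and 0.315 TPM. A count of 0 allows up to 0.0803 and 0.0538 counts per 1000000 (CPM) in the 2 libraries at 0, by 3 counts of their totals. The log2 fold change of 1.46 ± 1.71 (SE) was not called (edgeR adjusted p = 0.647). Without Tet2 KO replicate 2 it was fitted at -7.48 and called lower, as were 10.3% of all genes in that fit (edgeR adjusted p = 0.0371), a value that depends on the zeros of the remaining Tet2 KO libraries and is no bound. The 16 T cell markers summed to 15.0 TPM in that library and to 12.1 to 17.7 TPM over all 6, and Cd3e was at 0.149 TPM or less in each. The part of T cells in the Ccr7 level was not tested. Of the 8 T cell markers with enough counts 0 were called by edgeR (0 at an unadjusted p under 0.05, 0 by DESeq2).

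Fscn1, which encodes the actin-bundling protein fascin of dendrite-bearing mature cells (ENSMUSG00000029581.14, chr5:142960343-142973185), was the gene that fell. It received 58, 143 and 93 counts in Tet2 KO and 305, 243 and 284 in Tet2 WT, at 1.02, 1.66 and 0.951 TPM against 3.45, 3.11 and 4.58 TPM. Every Tet2 KO library was below every Tet2 WT library, in TPM as in CPM, and in CPM the same held for 18.1% of all tested genes. The fall was 2.47-fold (log2 fold change -1.30 ± 0.33 (SE), edgeR adjusted p = 0.0240). The same direction was found in all 17 alternatives, but leaving out a single library ended the call in 4 of 6 fits, at edgeR adjusted p = 0.0671 and 0.0897 without Tet2 KO replicates 1 and 3 and 0.113 and 0.0793 without Tet2 WT replicates 1 and 3. With the replicate number as a block the adjusted p was 0.0509, where 14.3% of all genes were called. Fscn1 and the fibroblast markers fell in the same libraries: Col1a1, a collagen chain of fibroblasts, was at 4.05, 3.20 and 5.57 TPM in Tet2 KO against 60.2, 38.6 and 49.3 TPM in Tet2 WT. Their part in the fall of Fscn1 was not tested.

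Siglech, a sialic acid-binding lectin of plasmacytoid dendritic cells and of some macrophages (ENSMUSG00000051504.18, chr7:55768178-55778925), was at 9.31, 5.55 and 4.99 TPM in Tet2 KO against 4.64, 8.92 and 8.52 TPM in Tet2 WT. The highest library was Tet2 KO and the lowest Tet2 WT. Its log2 fold change of 0.09 ± 0.31 (SE) was not called (edgeR adjusted p = 0.891) and turned negative in 6 of the 17 alternatives. Its counts were spread over 8 listed transcripts. Genes of the plasmacytoid list ranged widely in level: Ccr9, a homing receptor, was at 0.345 to 0.691 TPM and Spib, a lineage transcription factor, at 0.0705 to 0.425 TPM, whereas Tcf4 and Irf7, which other cells also express, were at 96.6 to 192 TPM and 22.5 to 85.3 TPM.

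**Figure D3:**
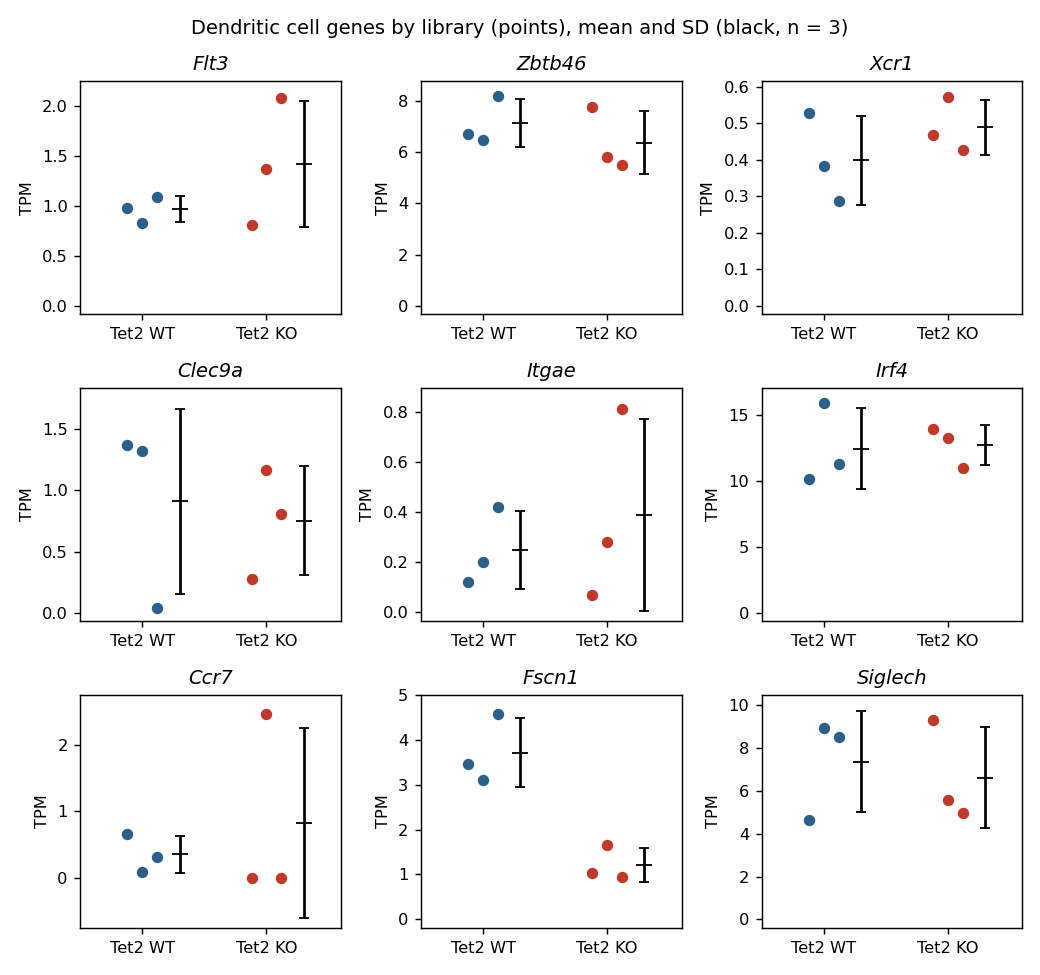
TPM of each dendritic cell gene (one panel each, linear axes) by genotype, with 1 point per library and the mean ± SD of 3 libraries in black. The genotypes are apart for Fscn1, at 0.951 to 1.66 TPM in Tet2 KO and 3.11 to 4.58 TPM in Tet2 WT, and overlap for the other 8.

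**Figure D4:**
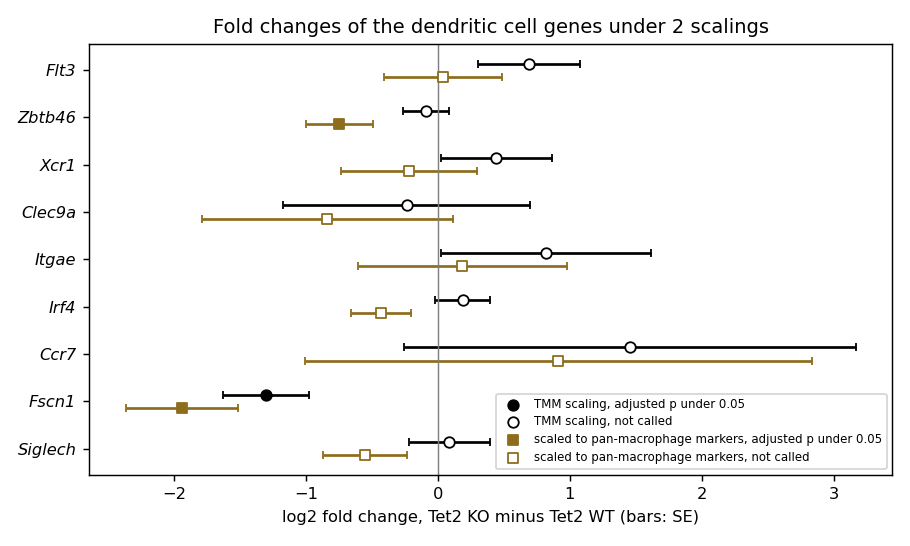
Log2 fold change of Tet2 KO against Tet2 WT (x axis, bars SE) for the 9 genes with libraries scaled to all genes (TMM, black circles) and to the pan-macrophage markers (brown squares), filled where the edgeR adjusted p is under 0.05. Under TMM Fscn1 is filled at -1.30, and under the macrophage scaling Fscn1 and Zbtb46 are filled.

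The 6 libraries also allow a search for genes that vary like the 9. For each, the Pearson correlation of log2(CPM + 0.5) over the 6 libraries was ranked among 10964 protein-coding genes with a mean of at least 2 on the log2 CPM scale. Fscn1 was most like Fmr1 (r = 0.996), a gene of an RNA-binding protein, and Casc4 (r = 0.996), which were both called lower in Tet2 KO. Flt3 was most like Cc2d1b (r = 0.977) and the chemokine gene Ccl17 (r = 0.972). Irf4 was most like Sem1 (r = 0.988), Zbtb46 like Upf3a (r = 0.990), Siglech like Zrsr2 (r = 0.972), Ccr7 like Ifih1 (r = 0.985), Clec9a like Mettl23 (r = 0.987), Xcr1 like Hbb-bt (r = 0.970) and Itgae like Crebrf (r = 0.970). With 6 points and so many genes, values this high are a description of these libraries only.

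Beside the 9, 6 lists of dendritic cell genes hold 111 others, of which 99 could be tested. Of these 25 were called higher and 8 lower in Tet2 KO (33.3% together), with a median log2 fold change of 0.36. Over all tested genes of the same fit 6.11% were called higher and 10.1% lower (16.2% together), with a median of 0.00. These shares are also the background for the count of each list below. The lists were chosen with earlier results of these data known, so the difference in shares is a description and no test. Scaled to the macrophage markers, 1 was called higher and 22 lower, with a median of -0.28. In that fit 37.9% of all tested genes were called lower, their median was -0.65, and 0.385% of their calls were higher, against 37.7% under TMM. Of the genes named below as rising, Tnfsf4 alone was still called higher under that scaling. By limma on both TPM scales the rises of Kmo, Slamf7, Gpr132, Irf8, Rab7b, Cd86, Marcksl1, Tlr7 and Bst2 were not called, and with length-scaled TPM counts those of Gpr132, Tlr7 and Bst2 were not. The count of higher genes fell to 14 without Tet2 WT replicate 1, to 15 without Tet2 WT replicate 3 and to 16 without Tet2 KO replicate 3. Many of these genes are also expressed by macrophages.

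In the list shared by conventional dendritic cells, 3 of 22 tested genes rose, 3 fell and 16 were not called (median 0.02). Kmo, an enzyme of tryptophan breakdown, rose from 12.9, 15.1 and 12.8 to 22.4, 15.9 and 24.7 TPM (log2 fold change 0.80 ± 0.18 (SE), edgeR adjusted p = 0.0133), and the surface receptor genes Slamf7 (0.69 ± 0.17) and Gpr132 (0.84 ± 0.25) rose as well. All 3 rises were lost without Tet2 KO replicate 3, and also without Tet2 WT replicate 1 or 3, that of Slamf7 without Tet2 KO replicate 1 too and that of Gpr132 without Tet2 KO replicate 2. Dpp4, which encodes the peptidase CD26, fell from 16.5 ± 5.59 TPM (SD, n = 3) to 7.45, 6.83 and 10.4 TPM, of which the last overlapped the 10.2 TPM of Tet2 WT replicate 2 (log2 fold change -1.35 ± 0.24), Rab30 by 2.44 and Hmgn3 by 2.06 on the log2 scale. The Dpp4 call was lost with length-scaled TPM counts (-0.85, adjusted p = 0.0631 by edgeR) and by limma on log2(TPM + 1) (-0.88, adjusted p = 0.0529). All 16 fibroblast markers fell in the same libraries as Dpp4, Rab30 and Hmgn3, and as Socs2, Cacnb3 and Tcf4 of the lists that follow, and their part was not tested. Hmgn3 lost its call without Tet2 KO replicate 2 or 3 or Tet2 WT replicate 1. Itgax, the integrin chain CD11c shared with macrophages, had 0.23 ± 0.22, at 6.13 to 11.8 TPM, and Flt3l, the ligand of FLT3, -0.23 ± 0.17, at 14.6 to 15.9 TPM in Tet2 KO and 18.6 to 19.8 TPM in Tet2 WT. Neither was called (edgeR adjusted p = 0.579 and 0.428). Adam19, a membrane protease and among the 2 most abundant of the list, was at 21.8 to 38.7 TPM (-0.15 ± 0.19).

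The wider cDC1 list went higher for 4 of 18 tested genes and lower for 2 (median 0.41). Cadm1, an adhesion molecule, rose from 22.1, 24.4 and 26.7 to 41.4, 42.8 and 42.2 TPM (log2 fold change 0.86 ± 0.12 (SE), edgeR adjusted p = 0.00136), and Itgb7, Rab7b (0.71 ± 0.14) and the transcription factor gene Irf8 (0.64 ± 0.15) rose too. Irf8, which monocytes and macrophages also express, stood at 129, 101 and 101 TPM against 74.5, 95.0 and 77.2 TPM, and lost its call when Tet2 KO replicate 1 or Tet2 WT replicate 1 or 3 was dropped (edgeR adjusted p at most 0.0710). Batf3, the factor on which cDC1 depend, was at 86.6, 70.0 and 56.6 TPM in Tet2 KO against 39.2, 59.5 and 53.6 TPM in Tet2 WT, which overlapped and was not called (0.66 ± 0.21, edgeR adjusted p = 0.0635). It was called higher with no low-count filter (edgeR adjusted p = 0.0292) and by DESeq2 (adjusted p = 0.0264). The same held without Tet2 KO replicate 3 or Tet2 WT replicate 2 (edgeR adjusted p = 0.0481 and 0.0439). Scaled to the macrophage markers, Batf3 was at 0.027 ± 0.23 and not called. Plpp1, a lipid phosphatase gene, and the interferon-inducible Ifi205 fell by 2.22 and 1.90 on the log2 scale, beside the fall of the fibroblast markers, whose part was not tested. Batf3, Irf8 and Naaa, a lysosomal amidase gene at 97.5 to 133 TPM (0.29 ± 0.16), were thus abundant in the same libraries in which Xcr1, Clec9a and Itgae were at 1.38 TPM or less.

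In the cDC2 list 7 of 15 tested genes rose, 0 fell by edgeR (0 at an unadjusted p under 0.05 and 0 by DESeq2), and 8 were not called. The median of 0.68 compares with 0.65 for the pan-macrophage markers. Cd209a, a C-type lectin of the DC-SIGN family, rose from 41.6, 42.9 and 48.4 to 82.3, 52.4 and 76.8 TPM (log2 fold change 0.80 ± 0.16 (SE), edgeR adjusted p = 0.00891), and the galactose lectin Mgl2 from 707, 914 and 988 to 1575, 1155 and 1402 TPM (0.81 ± 0.17). The protease gene Napsa rose by 1.16 ± 0.19, and the membrane protein genes Tmem176a and Tmem176b by 0.67 ± 0.15 and 0.68 ± 0.15. Tnfsf4, the costimulatory ligand OX40L, was called higher from very few counts, at 0.191 to 0.458 TPM in Tet2 KO and 0.0148 TPM or less in Tet2 WT, and lost the call without Tet2 WT replicate 1. Irf4 was among the 8 without a call. Scaled to the macrophage markers 1 gene of the list was called higher and 1 lower, with a median of 0.04. Without Tet2 WT replicate 1 the 7 rises became 3, and without Tet2 WT replicate 3 they became 4.

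Markers of mature, migrating cells split, with 6 of 27 tested higher and 3 lower (median 0.21). Cd83 and Cd86, surface proteins of activated antigen-presenting cells, rose by 0.77 ± 0.16 and 0.72 ± 0.16 on the log2 scale, to 1035 to 1314 TPM and 171 to 223 TPM in Tet2 KO. The signalling genes Stat4 and Samsn1 rose by 1.14 ± 0.20 and 0.79 ± 0.15, and Marcksl1 by 0.62 ± 0.17. Besides Fscn1, Socs2, a brake on cytokine signalling, fell from 75.1, 39.3 and 57.0 to 8.97, 9.87 and 13.9 TPM (log2 fold change -2.36 ± 0.26 (SE), edgeR adjusted p = 0.000377), and the calcium channel subunit gene Cacnb3 fell by 2.05. The chemokine gene Ccl17, named because its pattern is like that of Flt3, was at 1.45, 21.5 and 65.8 TPM in Tet2 KO against 0.248, 0.733 and 4.88 TPM in Tet2 WT. Its libraries overlapped and the log2 fold change of 4.11 ± 1.44 was not called (edgeR adjusted p = 0.107). Without Tet2 KO replicate 3, 3 genes of the list were higher and 2 lower; Cd83, Cd86 and Marcksl1 lost their calls there, Cd83 and Marcksl1 also without Tet2 WT replicate 3, and Marcksl1 without Tet2 KO replicate 1 or 2 or Tet2 WT replicate 1.

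In the plasmacytoid list 4 of 17 tested genes were higher and 1 lower (median 0.09). Irf7, the master factor of the interferon response in many cell types, rose from 30.1, 22.5 and 32.0 to 55.1, 85.3 and 64.4 TPM (log2 fold change 1.42 ± 0.19 (SE), edgeR adjusted p = 0.00103). The inhibitory receptor Lair1 (0.74 ± 0.16), the RNA sensor Tlr7 (0.61 ± 0.15) and the antiviral membrane protein Bst2 (0.45 ± 0.13) rose as well. Lair1 and Tlr7 lost their calls without Tet2 KO replicate 3, Tlr7 also without Tet2 WT replicate 1 or 3, and Bst2 whichever of the 6 libraries was dropped. Tcf4, the transcription factor that specifies plasmacytoid cells and that fibroblasts also express, fell from 192, 161 and 186 to 124, 96.6 and 116 TPM (-0.64 ± 0.12, edgeR adjusted p = 0.00740). Runx2, a factor of plasmacytoid cells and of bone, was at 0.563 to 1.98 TPM (-0.95 ± 0.38, edgeR adjusted p = 0.131). Of the 22 genes, 9 had a mean under 1 TPM.

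Among 21 regulators of dendritic cell development and FLT3 ligand, 2 were higher and 1 lower, or 14.3% against the 16.2% of all genes. Spi1, the factor PU.1 that macrophages and dendritic cells share, rose from 186, 237 and 197 to 362, 297 and 296 TPM (log2 fold change 0.74 ± 0.14 (SE), edgeR adjusted p = 0.00600), and the others were Irf8 and Tcf4. Id2, which opposes TCF4 in conventional cells, was at 116, 117 and 105 TPM in Tet2 KO against 193, 218 and 103 TPM in Tet2 WT, with replicate 3 of Tet2 WT apart from the other 2 of its group (-0.46 ± 0.26, edgeR adjusted p = 0.285). Without Tet2 WT replicate 3, Id2 was at -0.72 ± 0.15 and called lower (edgeR adjusted p = 0.0192). Without Tet2 WT replicate 2 it was at -0.22 ± 0.25 and not called (edgeR adjusted p = 0.676). The zinc finger gene Zeb2 (0.40 ± 0.14) and Irf2 (0.39 ± 0.14) were not called (edgeR adjusted p = 0.0975 and 0.0928). Scaled to the macrophage markers, 8 of the 21 were called lower by edgeR, Id2 among them. That is near the 37.9% of all tested genes called lower in that fit.

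**Figure D5:**
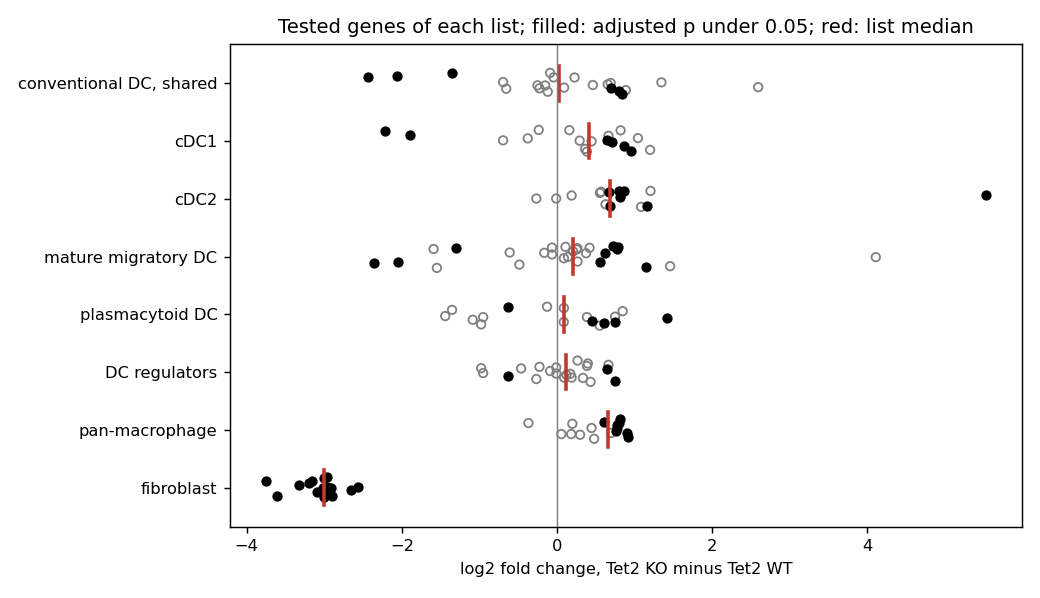
Log2 fold change of Tet2 KO against Tet2 WT (x axis) for every tested gene of the 6 dendritic cell lists and, for comparison, of the pan-macrophage and fibroblast markers, filled where the edgeR adjusted p is under 0.05, with the list median as a red bar. The cDC2 median of 0.68 lies beside the 0.65 of the macrophage markers, and that of the fibroblast markers is at -3.01.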

How the data were processed

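Paired-end RNA-seq of 6 libraries was used. Per the submitters' processing notes, the authors ran Trim Galore 0.6.4 and kallisto 0.44.0 against the mouse transcriptome (GRCm38). Each deposited table gives per transcript an estimated count, without normalization, and a TPM value scaled by the authors within the library. Which annotation release they used is not stated there. GENCODE M21 held 116622 of the 118783 transcripts (versions ignored).

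Per gene, estimated counts were added up and rounded. After edgeR's filter on low counts and TMM scaling, edgeR 4.0.16 (R 4.3.3) compared the genotypes by its robust quasi-likelihood test with no covariate. P-values were adjusted over all 16386 tested genes by Benjamini and Hochberg, and an adjusted value under 0.05 is a call. The SE is the log2 fold change divided by the root of F. In a simulation of this contrast 200 genes were changed before the filter on low counts, and 16041 genes passed it. Of the changed genes that passed, 38.8% of 49 with a 2-fold and 76.0% of 50 with a 4-fold change were found. A far smaller share of genes was changed there than the 16.2% called here. The adjusted p depends on that share, so these rates do not give the share of real changes found. No 2 libraries of one genotype agreed within sampling noise (lowest chi-square per gene 63.9).

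The 9 genes and the 16 gene lists were chosen with earlier results of these data known. Besides the 9, genes are named if fixed by name (Tet2, Flt3l, Batf3, Irf8, Id2, Tcf4, Kmo, Cd209a and Itgax, and defining genes of other cell types), among the 6 smallest p or the 2 highest levels of a dendritic cell list, or most like one of the 9. Genes most abundant in another cell type list, such as Ighm, Cd79b and Ebf1, are also named. Clec1b, Haspin, Ms4a1, Ccr9 and Spib were chosen after their values were seen. Alternatives were RLE, upper-quartile and macrophage-marker scaling, no filter and a stricter one (1 CPM in 3 libraries), each library left out, the replicate block, length-scaled TPM counts, limma voom (limma 3.58.1), DESeq2 1.42.0, and limma on log2(TPM + 1) and log2(TPM + 0.1). Limits from a count of 0 cover counting error only.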

Additional observations from a re-analysis of the deposited data

How the results depend on the processing

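The 9 dendritic cell genes were refitted under 17 alternatives. Fscn1 kept its direction in all 17 and its call in 12, and Flt3 kept its direction in all 17 with no call. The number of the 9 that were called was 1 in most settings, 2 with macrophage-marker scaling (Fscn1 and Zbtb46), 0 with the replicate block and 0 to 2 with a library left out. The number of genes called over the whole table was 6233 with macrophage-marker scaling, against 2653, and 1382 to 3141 with a library left out. The direction of Zbtb46, Xcr1, Clec9a, Itgae, Irf4, Ccr7 and Siglech changed in at least 1 setting, and the cause was not tested. Itgae and Ccr7 did not pass the stricter filter and have no value there. With a library left out, the log2 fold changes ran from -0.77 to 0.61 for Clec9a, -0.28 to 1.39 for Itgae, -7.48 to 2.32 for Ccr7, -0.16 to 0.27 for Siglech, -0.16 to 0.026 for Zbtb46, -0.042 to 0.43 for Itgax and -0.27 to 0.046 for Adam19. Clec9a was at 0.11 with the replicate block, 0.66 with limma voom and 0.21 with limma on log2(TPM + 0.1), and Ccr7 at -2.01, -1.93 and -0.38 in the same settings. Siglech was at -0.016 with length-scaled TPM counts, -0.13 with limma on log2(TPM + 1) and -0.15 with limma on log2(TPM + 0.1), and Itgax at -0.041 and -0.050 in the last pair. Macrophage-marker scaling, which moved the median of all tested genes to -0.65, reversed Xcr1 (-0.22), Irf4 (-0.43), Siglech (-0.55), Tet2 (-0.33), Irf8 (-0.022), Itgax (-0.40), Naaa (-0.34), Marcksl1 (-0.0099), Tlr7 (-0.041), Bst2 (-0.19), Irf2 (-0.26) and Zeb2 (-0.26). Limma on log2(TPM + 1) and log2(TPM + 0.1) put 16.6% and 17.2% of called genes higher, against 37.7%. Of the 32 called genes named from the 9 and from the 6 dendritic cell lists, 17 kept their call in all 6 fits with a library left out, and 9 lost it in at least 3. Called genes named from elsewhere, such as Fmr1, Casc4 and Col1a1, were not counted here. Replicate numbers are shared between the genotypes, but same-numbered libraries deviated together with correlations of 0.0602, 0.129 and 0.0422, so the numbers alone do not pair them; each library correlated best with its own number in 6 of 6 cases, a hint from the data only. With that block 2347 genes were called.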
